A study of Mus musculus with 2 samples.

Results

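Group 2 innate lymphoid cells (ILC2s) are tissue-resident lymphocytes without rearranged antigen receptors that answer alarm cytokines such as interleukin 33 with type 2 cytokines and with the growth factor amphiregulin. They arise from lymphoid progenitors of the fetal liver and the bone marrow, in which the factor GATA3 is required, and bone marrow holds committed ILC2 progenitors. Il1rl1 encodes ST2, the receptor of interleukin 33, and Areg encodes amphiregulin, a ligand of the epidermal growth factor receptor.

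The cells described here are bone marrow lymphoid progenitors that were picked by their RNA as ILC2 progenitor-like cells, called marker-positive cells below. A cell was marker-positive when its unique molecular identifiers (UMIs, counts of distinct RNA molecules) of Il1rl1, Areg, Ptpn13, Csf2 and Cysltr1 summed to at least 2, the marker sum. Its UMIs of Dntt plus Ly6d had to be under 2, those of the natural killer (NK) cell genes Eomes, Ncr1, Klrk1, Klrb1c and Tbx21 under 2, those of Cd74 under 10, and those of the cell cycle genes Mki67, Top2a, Nusap1, Birc5 and Ube2c under 10. Of 7258 bone marrow cells kept after quality filters, 1442 were marker-positive, which is 19.9% (exact binomial 95% interval 19.0 to 20.8%), and both tissues together held 15841 kept cells. Before the exclusions 1585 cells reached the marker sum, of which cell cycle genes removed 81, Cd74 30, NK cell genes 21 and Dntt or Ly6d 16, with some cells removed by more than 1 of these.

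The study profiled progenitors that carry the integrin α4β7 from untreated wild-type B6 mice by droplet single-cell RNA sequencing, with 1 library from bone marrow of mice labelled 6 to 8 weeks old and 1 library from fetal liver of stage E14.5, which carries the same 6 to 8 week label. Both were sorted as lineage-negative, CD45+, CD127+, Flt3-, α4β7+ and CD25- cells, and the number of mice behind each library is not given in the sources used here. With 1 library per tissue there is no replicate and no test, and every interval below covers counting error only. The bone marrow barcodes held 30039931 UMIs and the fetal liver barcodes 91781395, and 19 barcodes of kept cells occurred in both libraries, 3 of them in marker-positive bone marrow cells. Marker-positive cells were shallow, with a median of 2269.5 UMIs and 909.5 genes per cell, against 3736.5 UMIs and 1318 genes in the other 5816 bone marrow cells, and mitochondrial shares were close at 3.18% and 3.13%.

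Sets of cells were compared by summed UMIs scaled to a total of 1000000 (CPM) and the log2 ratio of the marker-positive cells over the cells they were set against. A gene was measured where it reached 10 CPM in the higher set, and called higher or lower from a 2-fold difference. The 18 genes of the rule were left out of all counts. The cells set against the marker-positive cells were the other 5816 bone marrow cells, the 4508 of these that passed every exclusion but had a marker sum of 0 or 1 (marker-low cells), the 877 marker-low cells with at least 2 UMIs of Icos plus Il17rb, and 814 fetal liver cells that met the same rule.

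Areg supplied 57.7% of the marker UMIs that chose the cells. Its gene lies on the plus strand at chr5:91139599-91148432 (mm10), and Il1rl1 on the plus strand at chr1:40429570-40465415. The promoter windows of Areg and of 2 genes high in the marker-positive cells, Cxcl2 and Nfkbia, are shown as those of the leading marker and of 2 abundant genes with a match, chosen after the matches were known. The windows run from 250 bases before to 50 bases after the RefSeq transcript start (GRCm38.p6, 5′ to 3′ on the strand of the gene), and capitals mark matches to a cyclic AMP response element (CRE, TGACGTCA) in Areg and to an NF-kB motif (GGG, then any 3 bases, then TTCC) in the others, both searched on both strands.
Areg, chr5:91139349-91139648, plus strand: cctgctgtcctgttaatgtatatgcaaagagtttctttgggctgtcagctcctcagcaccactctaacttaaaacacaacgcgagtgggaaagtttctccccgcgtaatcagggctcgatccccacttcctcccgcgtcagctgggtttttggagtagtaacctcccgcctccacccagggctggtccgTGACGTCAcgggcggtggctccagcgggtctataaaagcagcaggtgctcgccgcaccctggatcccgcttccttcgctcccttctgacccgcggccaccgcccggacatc
Cxcl2, chr5:90903649-90903948, plus strand: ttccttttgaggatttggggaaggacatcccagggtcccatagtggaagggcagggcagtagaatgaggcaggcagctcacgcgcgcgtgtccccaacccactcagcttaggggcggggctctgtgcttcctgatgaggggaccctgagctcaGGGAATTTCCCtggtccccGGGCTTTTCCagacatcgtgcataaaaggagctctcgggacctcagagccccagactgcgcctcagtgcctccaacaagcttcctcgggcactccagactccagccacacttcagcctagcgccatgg
Nfkbia, chr12:55492598-55492897, minus strand: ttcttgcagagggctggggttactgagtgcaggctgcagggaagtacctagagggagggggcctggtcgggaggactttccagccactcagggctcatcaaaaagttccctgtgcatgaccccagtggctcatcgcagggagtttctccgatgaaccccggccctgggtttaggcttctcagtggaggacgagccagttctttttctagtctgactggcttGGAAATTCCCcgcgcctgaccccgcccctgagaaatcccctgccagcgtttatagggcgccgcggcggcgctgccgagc
The CRE letters of Areg, a palindrome, begin 61 bases before the start, and 1.79% of 32851 RefSeq promoter windows held that motif. The Cxcl2 window held NF-kB matches at 97, 96 and 78 bases before the start, of which the pair at 97 and 96 overlap on opposite strands, and the Nfkbia window held 1 at 29 bases. That motif stood in 5.56% of the windows. AP-1 letters (TGANTCA, in 7.81% of windows) were also searched and had no match in these 3 windows. Windows were found for 10 of 15 genes looked up. Those of Il1rl1, Csf2, Ptpn13, Gadd45b and Gata3 held none of the 3 motifs, and Tnfaip3 and Nfkbid had a window with a match. A match of letters is a description of the window and not of binding.

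The 5 markers chose the cells, so their levels are a description. Areg stood at 957 CPM in marker-positive cells and 28.4 CPM in the other bone marrow cells, and 60.8% of marker-positive cells held an Areg UMI. Il1rl1 stood at 229 CPM in marker-positive cells and 13.5 CPM in other cells, with a UMI in 45.4% of marker-positive cells. Csf2, which encodes the myeloid growth factor GM-CSF, stood at 240 and 11.9 CPM in the same order of cells. Cysltr1, a receptor of cysteinyl leukotrienes, had 172 CPM in marker-positive cells and 12.4 CPM in other cells, and Ptpn13, a protein tyrosine phosphatase, had 61.3 and 4.16 CPM.

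Most marker-positive cells showed few of the 5 markers at once. A single marker was detected in 474 cells (32.9%), 2 markers in 689 (47.8%), 3 in 241 (16.7%), 4 in 37 and all 5 in 1 cell. Both Areg and Il1rl1 were detected in 297 cells (20.6%), Areg without Il1rl1 in 580 (40.2%), Il1rl1 without Areg in 358 (24.8%) and neither in 207 (14.4%). Areg alone brought 276 cells (19.1%) over the threshold, while Il1rl1 alone did so for 76 (5.27%). The median marker sum was 3 and the highest 35. Exactly 481 cells stood just inside the threshold with a sum of 2, and 922 cells that passed every exclusion stood just outside it with a sum of 1.

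Areg was more often detected in cells with Il1rl1 than in cells without it when depth was made equal. Among bone marrow cells that passed every exclusion, thinned to 2000 UMIs each, Areg was detected in 116 of 373 cells with an Il1rl1 UMI, 31.1% (exact binomial 95% interval 26.4 to 36.1%), and in 486 of 4297 cells without one, 11.3% (10.4 to 12.3%). The marker threshold was not applied to these cells.

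The wider set of ILC2 genes was read for a check of the label. Gata3 stood at 660 CPM in marker-positive cells, 670 CPM in marker-low cells with Icos or Il17rb, 473 CPM in all marker-low cells and 380 CPM in all other bone marrow cells. A Gata3 UMI was present in 69.5% of marker-positive cells at 2000 UMIs (608 of 875 cells that deep, 77.0% unthinned), 70.5% of Icos or Il17rb cells and 56.8% of all marker-low cells, against 20.2% of 590 cells of the Dntt or Ly6d class, whose median depth was 6748 UMIs. Rora, a nuclear receptor that ILC2s need, was close in marker-positive and other cells at 633 and 627 CPM, and lower than the 999 CPM of marker-low cells with Icos or Il17rb. Among all marker-low cells, Rora had 836 CPM at a marker sum of 0 and 789 CPM at a sum of 1. At sums of 2, 3 to 4, 5 to 9 and at least 10 it had 659, 623, 631 and 584 CPM. Id2, the inhibitor of E proteins found in innate lymphoid cells, stood at 1287 CPM in marker-positive and 884 CPM in other cells. The cells thus held the general innate lymphoid factors at levels that other progenitors of the same sort also reached, and Rora at a lower level than marker-low cells.

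Of 20 factors linked to ILC2s, 17 were measured over the other bone marrow cells, and 3 were higher and 2 lower by 2-fold, where 3.65% of all 6828 measured genes were higher (249) and 4.20% lower (287). Their median log2 ratio was 0.45, beside -0.08 over all measured genes. Over marker-low cells, which passed the same exclusions, the median was 0.09, beside -0.06 over all measured genes. Of the 17 factors measured there, 2 were higher (Bhlhe40 and Pparg) and 2 lower. The levels that follow are again set beside the other bone marrow cells. Bhlhe40, a basic helix-loop-helix repressor, had 235 CPM in marker-positive cells and 58.3 CPM in other cells, a log2 ratio of 2.01 (95% interval 1.89 to 2.13). Pparg, a nuclear receptor of fatty acids, had 17.7 and 2.92 CPM, a log2 ratio of 2.60 (2.12 to 3.08). Zfp36l1, an RNA-binding protein that promotes decay of its targets, had 1455 and 713 CPM. The 2 lower factors were Runx3, at 199 CPM in marker-positive and 506 CPM in other cells, and Tcf7, described below.

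Receptors of the ILC2 surface were the list with most genes called higher by number, among lists of unequal size. Of 25 listed, 19 were measured, 9 were higher and 3 lower, with a median log2 ratio of 0.97. Over the Icos or Il17rb marker-low cells, with those 2 genes left out, 4 of 16 measured were higher and none lower. Ly6a, the stem cell antigen Sca-1, had 392 CPM in marker-positive and 68.5 CPM in other cells, a log2 ratio of 2.52 (2.42 to 2.62). Il17rb, the receptor chain for interleukin 25, had 72.6 and 28.3 CPM, and Icos, a costimulatory receptor, had 372 and 147 CPM in the same order. Both were lower than in the marker-low cells chosen by these 2 genes, where they stood at 125 and 769 CPM. Il2ra encodes CD25, against which the cells had been sorted, yet it had 31.3 CPM in marker-positive and 3.89 CPM in other cells, a log2 ratio of 3.01 (2.62 to 3.40). An Il2ra UMI was found in 5.49% of marker-positive cells at 2000 UMIs, 2.33% of Icos or Il17rb cells and 0.843% of all marker-low cells. It was found in 0 of 590 Dntt or Ly6d cells at that depth, which by the limit of 3 counts allows up to 0.508% of cells with a UMI, and in 0.168% of them unthinned.

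Further receptors were detected in a small share of the cells. Klrg1, a lectin-like receptor of mature ILC2s, had 12.0 CPM in marker-positive and 1.71 CPM in other cells, and Il9r, the interleukin 9 receptor, had 13.7 and 2.49 CPM. Ptgdr2, which encodes CRTH2, was near the detection limit at 0.942 CPM in marker-positive cells and 0.350 CPM in other cells, as was Nmur1, the neuromedin U receptor, at 2.59 and 0.584 CPM. The 3 lower receptors were Kit, Cd7 and Il2rb. Of these, Cd7 had 36.8 CPM in marker-positive and 102 CPM in other cells.

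Effector genes of type 2 immunity were present at low levels. Of 21 listed, 11 were measured over the other bone marrow cells, 6 were higher and 1 lower, with a median log2 ratio of 1.09. Il4 had 73.0 CPM in marker-positive and 13.4 CPM in other cells, a log2 ratio of 2.45 (2.22 to 2.67), and was detected at 2000 UMIs in 12.0% of marker-positive cells, 5.04% of Icos or Il17rb cells, 2.92% of all marker-low cells and 0.169% of Dntt or Ly6d cells. Il13 had 15.5 and 2.02 CPM, a log2 ratio of 2.94 (2.40 to 3.49), from 66 UMIs in 47 marker-positive cells. Il5 remained under the minimum at 4.00 CPM in marker-positive and 1.25 CPM in other cells, and no UMI of Il3, Penk or Tph1 was found in marker-positive cells, which allows up to 0.707 CPM. The type 2 cytokines were therefore seen in a minority of the marker-positive cells.

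Other effector genes concern peptides and lipids. Calca, which encodes the neuropeptide CGRP, had 154 CPM in marker-positive and 47.4 CPM in other cells, and Ltb4r1, a receptor of leukotriene B4, had 73.5 and 15.5 CPM. Of 18 genes of leukotriene and prostaglandin biology 6 were measured, of which Ptgs2, Ptgir, Ltb4r1 and Ptger4 were higher and Alox5ap lower. Ptger4, a prostaglandin E2 receptor, had 38.6 CPM in marker-positive and 13.2 CPM in other cells. Alox5ap, the partner of 5-lipoxygenase, had 17.4 CPM in marker-positive and 45.4 CPM in other cells. Arg1, the arginase of ILC2s, did not reach the 2-fold threshold at 127 and 72.4 CPM.

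**Figure D1:**
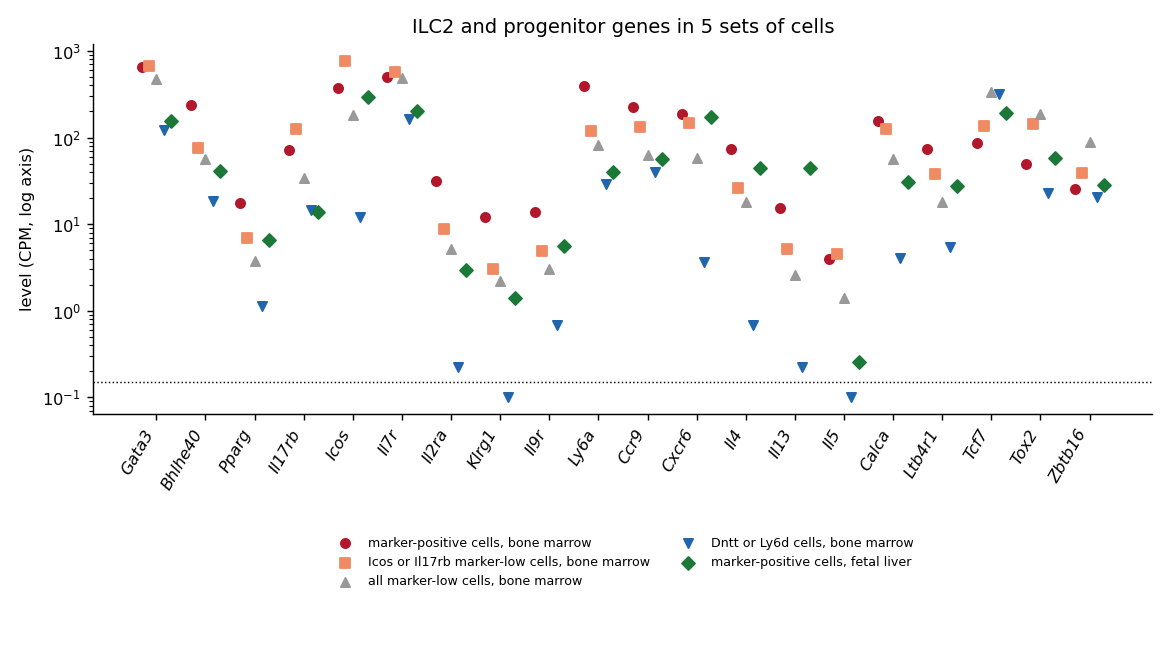
Levels (CPM, log axis) of 20 genes in 5 sets of cells, with 1 point per set and gene. Points under the dotted line are sets with no UMI, drawn there only to be seen. Bhlhe40, Il2ra, Klrg1, Ly6a, Il4 and Il13 are highest in marker-positive cells among the bone marrow sets, Gata3 is level with the Icos or Il17rb cells, and Tcf7, Tox2 and Zbtb16 are highest in all marker-low cells.

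The factors of earlier innate lymphoid progenitors were lower or within 2-fold, with 1 exception. Of 14 listed and measured, 1 was higher and 4 lower over the other bone marrow cells, with a median log2 ratio of -0.36. Tcf7, which encodes TCF-1, had 85.8 CPM in marker-positive and 308 CPM in other cells, a log2 ratio of -1.84 (-2.00 to -1.69). Zbtb16, which encodes PLZF, the factor that marks innate lymphoid cell precursors, had 25.7 and 68.1 CPM, and Tox2 had 49.5 and 138 CPM. Pdcd1, the gene of PD-1, had 16.5 CPM in marker-positive and 46.7 CPM in other cells. Cxcr6, a chemokine receptor of innate lymphoid precursors, was the gene that was higher, at 189 and 50.3 CPM.

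In the comparison with marker-low cells alone, Tox and Sox4 joined these 4 genes, so that 6 of 14 were lower. There, 2.92% of 6755 measured genes were higher (197) and 3.11% lower (210). The name of the cells as progenitor-like thus met mixed data. Several receptors and cytokines of ILC2s were higher, and Kit, Cd7 and Il2rb lower, than in the rest of the sorted progenitors. The precursor factors Tcf7, Zbtb16 and Tox2 were lower too, but Tcf7 and Zbtb16 were within 2-fold of the Icos or Il17rb marker-low cells. Over the other bone marrow cells, Tox2, Zbtb16 and Pdcd1 did not stay past 2-fold in all 14 alternatives described below.

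Among genes of at least 100 CPM, Cxcl2, a neutrophil-attracting chemokine, had the highest ratio over other bone marrow cells. It had 1064 CPM in marker-positive and 181 CPM in other cells, a log2 ratio of 2.55 (2.49 to 2.61), from 4517 UMIs in 480 marker-positive cells. After it and Ly6a came Phlda1, Bhlhe40, Gadd45b and Ccr9. Ccr9, the gut homing chemokine receptor, had 223 CPM in marker-positive and 56.5 CPM in other cells, and Phlda1 had 290 and 70.5 CPM. Nfkbiz, Stab2, Lztfl1, Nfkbia, Hlf, Nfkbid, Calca and Skap1 followed, with log2 ratios between 1.67 and 1.83, beside Cxcr6 at 1.91. Most of these genes were not particular to the marker-positive cells. Over the marker-low cells with Icos or Il17rb, Phlda1, Ccr9, Cxcr6, Stab2, Lztfl1, Hlf, Nfkbid, Calca and Skap1 were within 2-fold. Cxcl2, Ly6a, Bhlhe40, Gadd45b, Nfkbia and Nfkbiz were higher there.

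At the other end Plac8 had the lowest ratio, with 249 CPM in marker-positive and 1605 CPM in other cells (log2 ratio -2.69, -2.78 to -2.60). Igfbp4 had 74.4 and 262 CPM, and Fcer1g, the signalling chain of Fc receptors, had 256 and 803 CPM. Cd24a, H2-Aa, Klrd1 and the histone genes Hist1h2ap and Hist1h2ae were also among the lowest, but cells with Dntt, Ly6d, NK cell, class II chaperone or cell cycle genes stand only among the other cells by the rule. The lists of those classes follow the exclusions: all 7 measured NK cell genes and, for the G2 and M phases, 9 of 10 measured genes had lower levels than in the other bone marrow cells. Over marker-low cells, which passed the same exclusions, 4 of 5 measured NK cell genes and 0 of 2 genes of the G2 and M phases were lower.

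**Figure D2:**
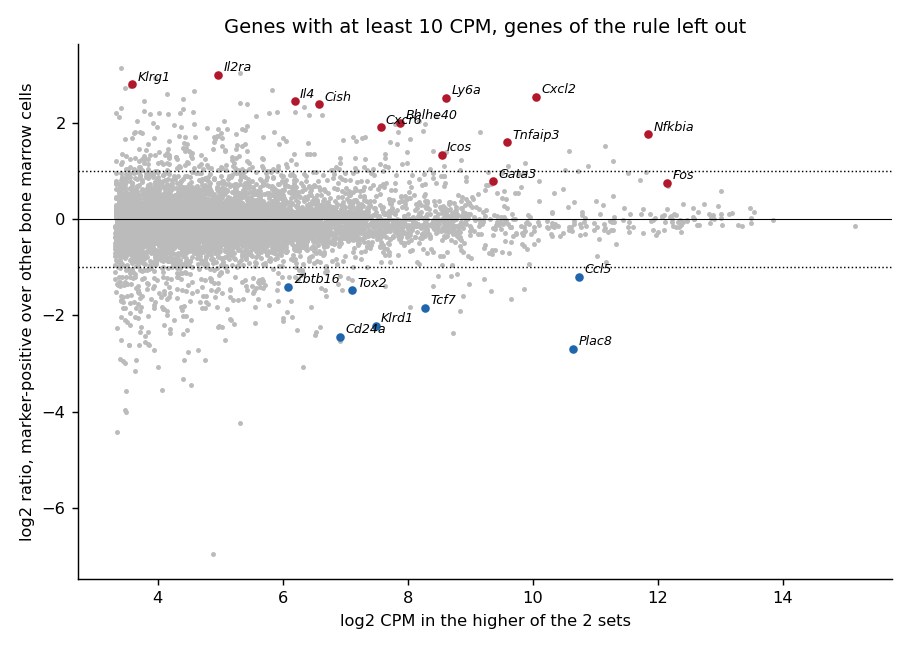
Log2 ratio of marker-positive over other bone marrow cells against log2 CPM in the higher of both sets, 1 point per measured gene, without the genes of the rule. Dotted lines stand at 2-fold. Cxcl2, Ly6a, Nfkbia, Il2ra and Il4 lie above the upper line and Plac8, Tcf7, Cd24a and Klrd1 below the lower line.

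Of the NF-kB pathway, 7 of 15 measured genes were higher and 8 within 2-fold. NF-kB factors are held in the cytoplasm by inhibitors and switch on their own inhibitors when active. The pathway list held 17 genes, none was lower over the other bone marrow cells, and the median log2 ratio was 0.86. Nfkbia, the inhibitor IκBα, had 3665 CPM in marker-positive and 1073 CPM in other cells, a log2 ratio of 1.77 (1.74 to 1.80). Nfkbiz and Nfkbid, further genes of the list, had 303 and 139 CPM in marker-positive cells and 85.1 and 42.4 CPM in other cells. Tnfaip3, the A20 deubiquitinase, had 765 CPM in marker-positive and 252 CPM in other cells. The other higher genes were Birc3, Map3k8 and Nfkb2, while the subunit Nfkb1 stayed under 2-fold at 201 and 119 CPM. With the other cells reweighted by depth, Nfkbiz at 0.97 and Tnfaip3 at 0.96 came under 2-fold, and Nfkbia at 1.01 and Nfkbid at 1.08 lay just past it.

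Early response genes and genes of cytokine receptor signalling were called in part. Of 26 early and stress genes 24 were measured, 8 were higher and 1, Hspa1a, lower. Zfp36, which encodes the RNA decay factor tristetraprolin, had 2282 CPM in marker-positive and 790 CPM in other cells, and Fosb had 1523 and 573 CPM. Of 15 genes of the JAK-STAT pathway 14 were measured, of which 5 were higher, Cish, Socs2, Pim1 and Jak2 among them, and none lower. Cish, a feedback inhibitor of STAT5 signalling, had 95.2 CPM in marker-positive and 18.2 CPM in other cells, a log2 ratio of 2.39 (2.19 to 2.58). Reweighting by depth put Zfp36 at 0.79, Fosb at 0.78, Pim1 at 0.66 and Socs2 at 0.63, under 2-fold, and Cish at 1.32. No gene of 14 measured for glycolysis passed 2-fold in either direction.

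The counts changed with depth. When the other bone marrow cells were reweighted to the depth of the marker-positive cells, 83 genes were higher and 159 lower in place of 249 and 287, which moves the share of higher among called genes to 34.3% from 46.5%. The log2 ratio of Ly6a was then 1.11, that of Cxcl2 1.64, that of Nfkbia 1.01, that of Il4 1.24 and that of Il2ra 1.46, all past 2-fold. Ccr9, at 0.97, Icos, at 0.93, Il17rb, at 0.86, and Tnfaip3, at 0.96, came to lie under 2-fold. Tcf7 kept -1.65 and Plac8 -2.15. Thinning to 2000 UMIs kept only cells at least that deep, 875 marker-positive and 5048 other cells. It gave 2.69 for Ly6a, 2.60 for Cxcl2 and 1.69 for Nfkbia. Of the 768 other cells under 2000 UMIs, 69.9% lay in the clusters rich in marker-positive cells that are described next, against 8.08% of the 5048 deeper ones.

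The cells were clustered without the genes of the rule to see where marker-positive cells fell. Of 16 clusters, 3 held marker-positive cells at more than 39.7%, which is 2 times the share in the library. Cluster 0 held 736 among 1378 cells (53.4%), cluster 4 held 341 among 586 (58.2%), and cluster 13 held 63 among 121 (52.1%). Together they took in 79.1% of the marker-positive cells (76.9 to 81.1%) and 28.7% of all kept bone marrow cells. Cluster 7, with 136 among 368 cells (37.0%), came next, and the cluster led by Prss34 and Mcpt8, genes of basophils, held 4 of 46.

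**Figure D3:**
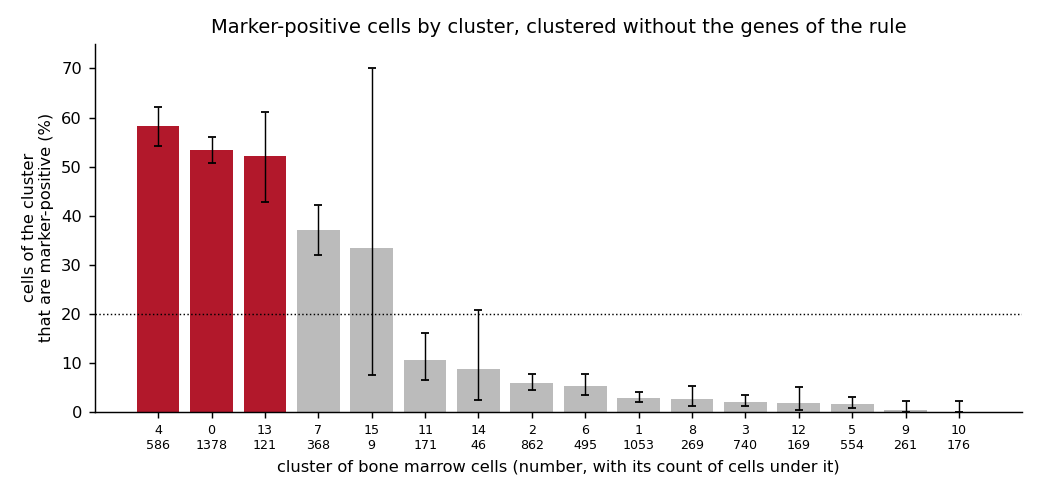
Share of each cluster's cells that were marker-positive, with exact binomial 95% intervals for counting error; the number of cells stands under each cluster number and the dotted line is the share in the whole library. Clusters 4, 0 and 13, in red, stand at 58.2%, 53.4% and 52.1%, and clusters 7 and 15 are the next highest.

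Marker-positive and other cells of the same rich clusters were alike in the genes not used by the rule. The 3 clusters held 1140 marker-positive cells with a median of 2010 UMIs and 945 other cells with a median of 1891 UMIs. Of these other cells 479 had a marker sum of 0, 457 had a sum of 1 and 9 met an exclusion. Between the 2 sets 20 of 6544 measured genes (0.306%) were higher and 31 (0.474%) lower by 2-fold, and none of the 1163 genes of at least 100 CPM was. Gata3 had 722 CPM in the marker-positive and 709 CPM in the other cells of these clusters, Ly6a 546 and 541 CPM, Nfkbia 4515 and 4322 CPM, and Tcf7 52.5 and 66.2 CPM. The clustering used these genes, so a likeness within a cluster is partly set by it. Levels of Cxcl2 differed most among the abundant genes listed here, at 1151 and 950 CPM.

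The clusters that held the marker-positive cells differed among themselves, described here by genes that took part in the clustering. Cluster 4 had 919 CPM of Ly6a, 413 of Bhlhe40, 158 of Il4, 70.2 of Il2ra and 30.1 of Klrg1, where cluster 0 had 492, 278, 84.7, 36.5 and 9.69 CPM. Cluster 0 had 480 CPM of Icos, 203 of Il18r1, 246 of Hlf and 1342 of Cxcl2, where cluster 4 had 214, 31.0, 72.9 and 675 CPM. Tcf7 was low in both, at 18.7 CPM in cluster 0 and 14.6 CPM in cluster 4, and stood at 304 CPM in cluster 13. The genes of the rule, which the clustering did not see, also differed: Areg had 909 CPM in cluster 4, 705 in cluster 0, 258 in cluster 7 and 239 in cluster 13, and Il1rl1 had 268, 225, 36.0 and 77.3 CPM in the same clusters.

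Levels changed in steps with the marker sum, among cells that passed every exclusion. For marker sums of 0, 1, 2, 3 to 4, 5 to 9 and at least 10, Ly6a had 49.2, 231, 346, 412, 422 and 421 CPM. Cxcl2 had 135, 570, 731, 767, 1488 and 2151 CPM over the same steps, and Nfkbia had 968, 2295, 3060, 3548, 4275 and 4694 CPM. Cells with a sum of 1, just outside the threshold, thus lay between those at 0 and those inside it. Tcf7 had 357, 216, 113, 78.1, 72.8 and 49.7 CPM, and Plac8 had 1182, 568, 379, 256, 111 and 91.2 CPM. Gata3 moved little beyond the first steps, with 452, 569, 667, 656, 674 and 624 CPM. Median depth over these steps was 3548, 2839, 2282, 2226, 2193 and 2482 UMIs, so depth moved with the sum up to a sum of 2 and little after it. The part of depth in the steps was not tested. The markers rose unequally from a sum of 2 upward, with Areg at 184, 430, 1450 and 3919 CPM and Csf2 at 106, 184, 349 and 607 CPM. Il1rl1 had 187, 270, 269 and 164 CPM there, Cysltr1 146, 199, 158 and 193 CPM, and Ptpn13 42.8, 73.2, 72.8 and 60.1 CPM.

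**Figure D4:**
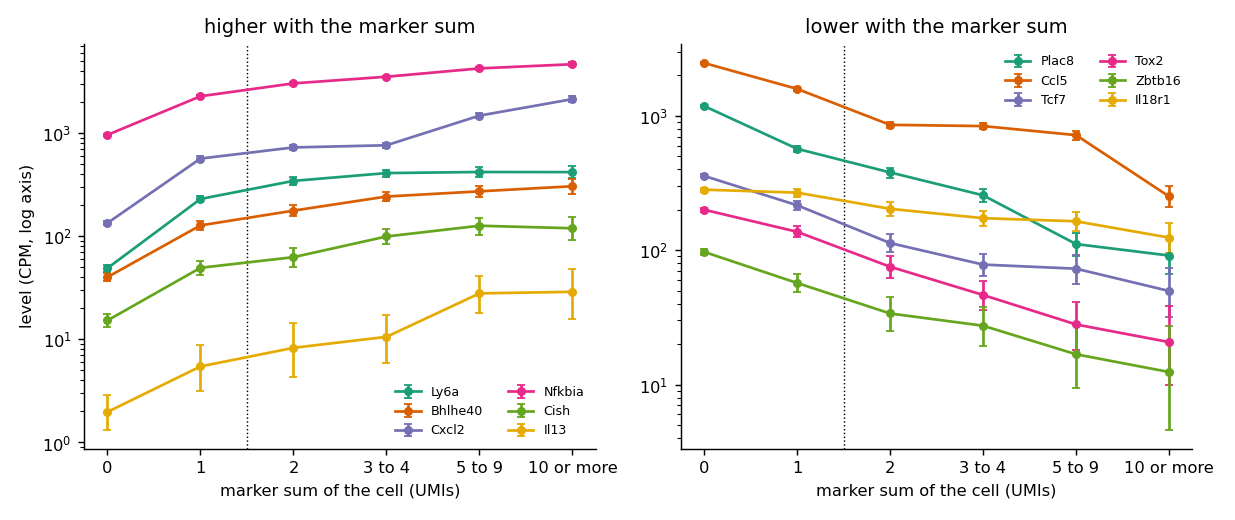
Levels (CPM, log axis) of 12 genes by marker sum in bone marrow cells that passed every exclusion, with exact Poisson 95% intervals for counting error. The dotted line is the threshold of the rule. Ly6a and Nfkbia are higher and Tcf7 and Plac8 lower with a higher marker sum, on both sides of the line.

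Within the marker-positive cells, the 159 cells with a marker sum of at least 10 were set against the 481 cells with a sum of 2. Of 6970 genes of at least 10 CPM, 320 were higher (4.59%) and 488 lower (7.00%) by 2-fold in the cells with the high sum, and of 1225 genes of at least 100 CPM 5 were higher (0.408%) and 7 lower (0.571%). Cxcl2 had 2151 CPM in the cells with the high sum and 731 CPM in those with a sum of 2, Cxcl10 had 450 and 145 CPM, and Hilpda, a lipid droplet gene, had 385 and 180 CPM. Ccl5, a chemokine of NK cells and T cells, was lower at 251 and 856 CPM, and Fcer1g at 149 and 383 CPM. Pf4, at 102 and 3.45 CPM, came from 1 cell that held 49 of the 56 Pf4 UMIs of all marker-positive cells.

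Cells with Areg and without Il1rl1 were set against cells with Il1rl1 and without Areg. Of 6739 genes of at least 10 CPM, 193 were higher (2.86%) and 177 lower (2.63%) in the Areg cells, and of 1229 genes of at least 100 CPM 6 were higher (0.488%) and 1 lower (0.0814%). Ccr9 had 154 CPM in the Areg cells and 342 CPM in the Il1rl1 cells, a log2 ratio of -1.15 (-1.39 to -0.91). Dut, a nucleotide enzyme of S phase, had 265 CPM in the Areg cells and 125 CPM in the Il1rl1 cells, and Hist1h2ae, a replication histone, had 150 and 47.6 CPM. Atf3, a stress factor, stayed under 2-fold at 401 and 218 CPM. Cells positive for both had 1197 CPM of Cxcl2, the Areg cells 1305, the Il1rl1 cells 788 and the cells with neither 605 CPM. Median depth was 2476 UMIs in the Areg cells and 2042 in the Il1rl1 cells. With at least 2 Csf2 UMIs against none, 142 of 6663 genes of at least 10 CPM were higher (2.13%) and 282 lower (4.23%), and of 1213 genes of at least 100 CPM 2 were higher (0.165%) and 1 lower (0.0824%). Both of these 2 higher genes came largely from few cells. Prss34 had 93 of its 94 UMIs in 1 cell. Ccl4 had 281 and 109 CPM, and 2 cells held 51.3% of its UMIs in all marker-positive cells.

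Set against marker-low cells chosen for 2 other ILC2 genes, Icos and Il17rb, the marker-positive cells gave the following counts. Of 6763 measured genes 99 were higher (1.46%) and 102 lower (1.51%). Ly6a had 392 CPM in marker-positive and 118 CPM in Icos or Il17rb cells, a log2 ratio of 1.73 (1.57 to 1.90). Bhlhe40 had 235 and 75.2 CPM, Cxcl2 1064 and 439 CPM, and Nfkbia 3665 and 1746 CPM. Cish had 95.2 CPM in marker-positive and 24.3 CPM in Icos or Il17rb cells, and Il4 73.0 and 26.1 CPM. Scaling by a median ratio or by TMM would add 0.101 or 0.113 to each log2 ratio of this comparison. Ccl4, the highest by ratio among genes of at least 100 CPM at 124 and 32.1 CPM, owed 51.3% of its UMIs in marker-positive cells to 2 cells.

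The genes lower than in the Icos or Il17rb cells were Tox2, Bcas1, Il18r1, Ccl5, Uqcrq, Sox4, Txk and Lmo4 among the abundant ones. Il18r1, the interleukin 18 receptor, had 176 CPM in marker-positive and 441 CPM in Icos or Il17rb cells, a log2 ratio of -1.33 (-1.46 to -1.20). Lmo4, a LIM domain factor, had 1381 and 2938 CPM. Tox2 had 49.5 and 145 CPM. Of the 14 precursor factors, Il18r1, Pdcd1, Tox2 and Sox4 were lower and none higher, while of 18 ILC2 factors Bhlhe40 and Pparg were higher and none lower. Reweighting by depth gave 59 genes higher, of which 44 were among the 99. It put Ly6a at 0.61, Bhlhe40 at 0.90, Pparg at 0.53, Il4 at 0.93, Cxcl2 at 0.72 and Nfkbia at 0.60, all under 2-fold, whereas Cish stood at 1.22 and Tox2 at -1.25. Of 29 named genes called higher here, 5 stayed past 2-fold in all 14 alternatives that change a ratio. Of 10 named genes called lower, 2 did. Tox2, Ccl5, Il18r1, Uqcrq, Sox4, Txk, Lmo4 and Pdcd1 did not.

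**Figure D5:**
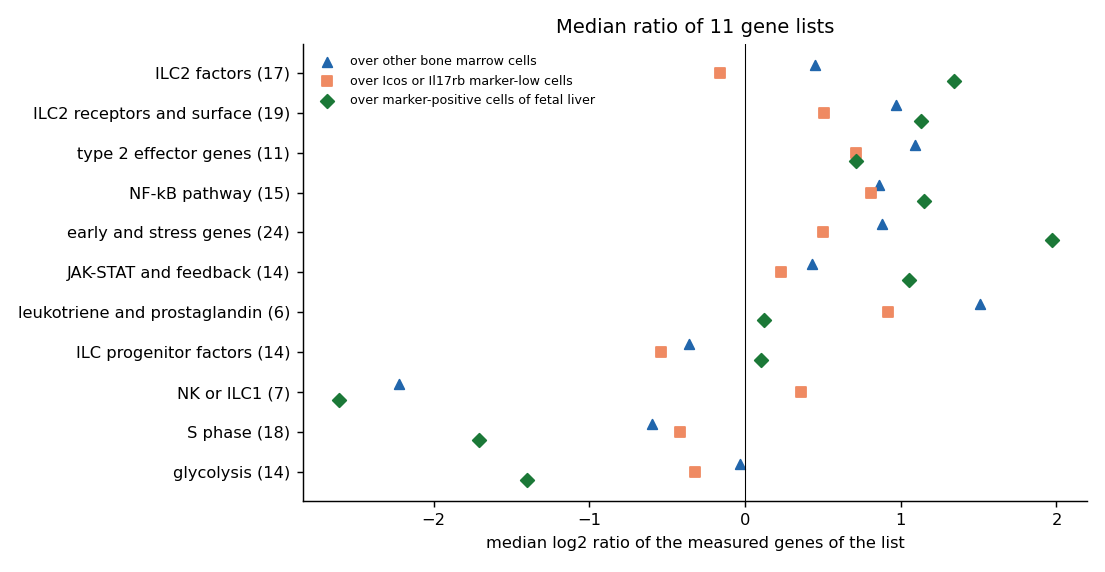
Median log2 ratio of the measured genes of 11 lists in bone marrow marker-positive cells over 3 sets of cells; the number in brackets is the count measured over the other bone marrow cells. ILC2 receptors, type 2 effectors, NF-kB, early and stress, JAK-STAT, and leukotriene and prostaglandin genes have medians above 0 in all 3 comparisons. ILC2 factors stand at -0.16 over the Icos or Il17rb cells. The NK or ILC1 list stands at -2.22 over the other bone marrow cells, from which NK cell genes had not been excluded.

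The same rule met fewer cells in fetal liver, 814 of 8583 kept cells or 9.48% (8.87 to 10.1%). With cells of at least 2000 UMIs thinned to 2000 before the rule was applied, it met 653 of 5923 bone marrow cells, 11.0% (10.2 to 11.9%). In fetal liver it then met 212 of 8452 cells, 2.51% (2.19 to 2.86%). Fetal liver marker-positive cells were deeper, with a median of 9039.5 UMIs. Their markers differed too, with 957 CPM of Areg in bone marrow marker-positive cells and 64.9 CPM in those of fetal liver, 229 and 32.3 CPM of Il1rl1, and a close 240 and 248 CPM of Csf2.

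Many of the fetal cells that met the rule held genes of the T cell receptor complex. At least 2 UMIs of Cd3e, Cd3d and Cd3g were found in 3 of the 1442 bone marrow marker-positive cells and in 410 of the 814 fetal liver ones (50.4%), and also in 43.9% of the fetal liver marker-low cells. Il22 had 0.942 CPM in bone marrow and 285 CPM in fetal liver marker-positive cells, Lta 7.30 and 400 CPM, and Cd3g 4.95 and 324 CPM. Cck was not found in the bone marrow cells and stood at 117 CPM in fetal liver, which makes it at least 166-fold lower by the limit of 3 counts over the set. Arg1 had 127 and 335 CPM, and Il13, which was lower in bone marrow by 2-fold, had 15.5 and 44.0 CPM. Of 6895 measured genes 1068 were higher (15.5%) and 837 lower (12.1%) in the bone marrow cells, and tissue, age, depth and library cannot be told apart in this comparison.

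Several ILC2 genes were higher in bone marrow than in fetal liver marker-positive cells. Gata3 had 660 CPM in bone marrow and 157 CPM in fetal liver, a log2 ratio of 2.07 (1.98 to 2.17), and Ly6a had 392 and 40.0 CPM. Il17rb had 72.6 and 13.9 CPM, and of 17 ILC2 factors 11 were higher and only Tcf7 lower. Hlf, a factor of haematopoietic stem cells, had 160 and 8.69 CPM, and Ctla2a had 383 and 8.82 CPM. Early response genes were higher in 20 of 23 cases, with Zfp36 at 2282 and 314 CPM. For Cxcl2, at 1064 CPM in bone marrow and 504 CPM in fetal liver, the ratio of 1.08 became -0.58 when fetal cells were reweighted by depth, where 5 of 20 depth bins held no fetal cell.

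Genes of other cell types were scarce among the bone marrow marker-positive cells. Mast cell and basophil genes (Ms4a2, Fcer1a, Mcpt8, Prss34, Cma1, Tpsb2, Mcpt4 and Gata2) summed to 137 UMIs or 32.3 CPM in marker-positive cells, of which 1 cell held 130, and to 27.9 CPM in marker-low cells, with Cma1, Mcpt4 and Tpsb2 at 0 in marker-positive cells. The T cell receptor genes Cd3e, Cd3d and Cd3g summed to 8.25 CPM in marker-positive and 11.9 CPM in marker-low cells, and myeloid genes to 7.07 and 13.8 CPM. B lineage genes summed to 0.942 and 3.65 CPM, and globin and other erythroid genes to 25.4 and 22.4 CPM. At least 2 UMIs of any 1 of these groups were found in 24 marker-positive cells (1.66%), which held 52 of the 4063 Areg UMIs. With them removed, 1418 cells remained.

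The remaining lists were also read over the other bone marrow cells. Of 16 measured homing and egress genes 5 were higher (Klf2, Gpr183, Ccr9, Cxcr6 and Itgb7) and 2 lower. Over marker-low cells 3 of these 16 were higher (Klf2, Ccr9 and Cxcr6) and 2 lower, and over Icos or Il17rb cells none was higher and 1 lower. Of 20 cytokine receptors 5 were higher and 2 lower over the other bone marrow cells. Of 8 costimulatory and checkpoint genes Icos and Cd200r1 were higher and Cd28 and Pdcd1 lower. Hlf and Ly6a were higher and Cd34 and Kit lower among 7 genes of stem and multipotent cells. Of 12 survival and death genes 2 were higher and 1 lower, of 8 interferon-stimulated genes 2 were higher, and of 6 Notch pathway genes none passed 2-fold.

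Among genes of other lineages, 2 of 4 measured genes of lymphoid tissue inducer cells and group 3 innate lymphoid cells were higher (Tnfsf11 and Ltb), and 1 of 6 early lymphoid genes, Cd34, was lower, with no UMI of Rag1 or Rag2 in marker-positive cells. Of 3 T cell genes 1 was lower, and of 6 genes of mast cells, basophils and eosinophils 1 was higher and 2 lower, of which Prg2 rests on 1 marker-low cell with 745 of the 753 Prg2 UMIs of the marker-low cells. Of 2 myeloid genes 1 was lower, of 8 dendritic or class II genes 5 were lower, and of 3 erythroid or megakaryocyte genes 1 was higher and 1 lower. The 1 stromal gene measured did not pass 2-fold, and 3 of 18 S phase genes were lower. Cells past the limits for Cd74 or cell cycle genes stand only among the other cells by the rule. Over marker-low cells, which passed the same exclusions, 2 of 8 dendritic or class II genes and 0 of 17 S phase genes were lower. Of the 4 genes of lymphoid tissue inducer and group 3 innate lymphoid cells measured there, none was higher or lower. Over the other bone marrow cells, Tnfsf11 and Ltb did not stay past 2-fold in all 14 alternatives described below. Of 13 listed genes of the epidermal growth factor family, its receptors and the proteases that release its ligands, Adam10 and Adam17 were the 2 measured besides Areg, neither past 2-fold, and Egfr, Erbb2, Ereg, Tgfa and Nrg1 had no UMI in marker-positive cells.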

How the data were processed

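Droplet single-cell RNA sequencing of 2 sorted progenitor samples was used, 1 from bone marrow and 1 from fetal liver. Values were deposited as UMI counts that had not been normalized, for each gene in each barcode. Per the labels' protocols, the authors made 10x Chromium 3' libraries, counted UMIs and left out barcodes not associated with cells. Software version 3.0.1 and format 2 stand in the matrices, per the file headers. Per the submitters' processing notes, mm10 and Seurat 4.0 were named without a role; the aligner is not given in the sources used here. Deposited gene and barcode lists (other) hold no measurement.

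Barcodes with at least 500 genes and at most 10% mitochondrial UMIs were kept, 7258 of 7367 in bone marrow and 8583 of 8946 in fetal liver. Sums over cells were scaled to 1000000 UMIs (CPM), and log2 ratios carry exact conditional 95% intervals. With 1 library per tissue no test was run. A set with 0 UMIs was given 3 counts as its limit. Shares were compared after thinning cells of at least 2000 UMIs to 2000, and shallower cells were left out. Clusters came from scanpy 1.11.5 and leidenalg 0.10.2 without the 18 genes of the rule, TMM factors from edgeR 4.0.16. Python 3.11.15, numpy 2.4.6, scipy 1.17.1 and pandas 2.3.3 were used, and ratio and interval code was tested on simulated data. Of 27998 gene identifiers 27645 matched GENCODE M21, from which coordinates were taken.

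The cells, the 29 gene lists and the rule for named genes were chosen with earlier results of these data known. Named were the 15 highest and 10 lowest ratios of genes of at least 100 CPM over other bone marrow cells, 8 each way in the other comparisons, the 4 most different members of each list and every member of 4 ILC lists, of which a selection is printed (some members of the lists are not reported here); genes named within the marker-positive cells and in clusters were chosen after their values were seen. Scrublet called 0 bone marrow and 2 fetal liver doublets, so it did not work here, doublets were kept, and an alternative left out the highest 6% of scores.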

Additional observations from a re-analysis of the deposited data

How the results depend on the processing

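The counts of genes higher and lower by 2-fold were recomputed under 15 alternatives. Scaling by median ratio or TMM, at most 5% mitochondrial UMIs, removal of the highest Scrublet scores or of cells with genes of other cell types, a marker sum of at least 3, and markers without Areg or without Il1rl1 kept every count within 1.5 times. A minimum of 50 CPM gave 91 higher and 64 lower over other bone marrow cells, 64 and 51 over marker-low cells, 22 and 13 over Icos or Il17rb cells, and 346 and 349 over fetal liver cells, from fewer genes measured. No minimum with 1 CPM added gave 646 lower over other cells, 318 and 508 over marker-low, 289 and 347 over Icos or Il17rb, and 1621 and 1361 over fetal liver cells. Reweighting by depth gave 83 and 159, 85 and 138 over marker-low cells, 59 higher over Icos or Il17rb cells, and 1309 lower over fetal liver cells. Over Icos or Il17rb cells, equal weight per cell gave 171 lower, cells of at least 1000 genes 62 lower, and thinning 179 higher and 217 lower. A marker sum of at least 1 gave 132 lower over marker-low and 67 lower over Icos or Il17rb cells. The cause of these moves was not tested.

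The share of bone marrow cells that met the rule was 11.7% among cells of at least 1000 genes, 13.2% with a sum of at least 3, 32.6% with at least 1, 12.1% without Areg, 15.9% without Il1rl1 and 11.0% with the rule applied to thinned cells. Rich clusters held 80.2% of marker-positive cells at a Leiden resolution of 0.5 and 76.7% of those in thinned data.

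Past 2-fold in all 14 alternatives that change a ratio were 75 of 249 higher and 121 of 287 lower genes over other cells, 72 of 197 and 91 of 210 over marker-low cells, 25 of 99 and 21 of 102 over Icos or Il17rb cells, and 497 of 1068 and 328 of 837 over fetal liver cells. Signs turned for few results. Over fetal liver cells, depth reweighting put Bcl2 at -0.88, Cxcl2 at -0.58 and Gadd45b at -0.03, a sum of at least 3 put Ccl4 at -0.27 and Prss34 at -3.49, and no minimum put the medians of early lymphoid, erythroid and stromal genes at -0.33, -0.10 and 0.25. Reweighting put Hba-a1 at -0.02 over other cells. A sum of at least 1 put Car1 at 2.42 over other and 1.79 over marker-low cells. Without cells holding genes of other cell types, an alternative chosen after seeing the data, Alox5ap stood at 0.05 and Prss34 at -2.14 over fetal liver cells, and Ifitm1, Pf4 and Prss34 at -0.35, -0.87 and -0.35 over Icos or Il17rb cells. The mast cell list over fetal liver cells had a median of 1.77 then and 1.68 without Il1rl1. No paired analysis was possible because each tissue had 1 library.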

Other observations

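Genes of cell survival and homing add values not given above. Bcl2 had 184 CPM in marker-positive and 415 CPM in other bone marrow cells, while its relatives Bcl2a1b and Bcl2a1d, near-identical copies among which reads can be split, had 30.9 and 20.7 CPM in marker-positive and 9.26 and 5.49 CPM in other cells. Gpr183, a receptor of oxysterols that guides lymphoid cells, had 253 CPM in marker-positive and 112 CPM in other cells. Itga4 and Itgb7, the chains of the sorted integrin, had 270 and 109 CPM in marker-positive and 261 and 53.9 CPM in other cells. Over marker-low cells, Gpr183 and Itgb7 were within 2-fold. Ccl1, a chemokine gene of activated ILC2s, had 17 UMIs in 8 marker-positive cells and 0 in all other bone marrow cells.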
